A study of Mus musculus with 30 samples.

Results

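Colonic CD81+ fibroblasts (FB) were compared with colonic Fgfr2+ FB, using 3 bulk RNA-seq libraries of each, 6 of the 30 libraries of a series on the stromal cells of the mouse intestine. The libraries were chosen by their labels alone and not by any expression value. The series asked how such cells are organised in the small intestine and colon, and holds 10 populations sorted by flow cytometry, 3 libraries each. Intestines came from 3 individual mice of the strain C57BL6/Nrj, untreated and 8 to 10 weeks old, with no transgene or deletion stated.

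Cells for both populations came from the colonic lamina propria. Dead cells and cells carrying lineage markers, CD31, BP3, EpCAM or high NCAM were gated out before the stromal gates were set. CD81+ FB were then taken as ESAM-1−PDPNintCD34+CD90− cells and Fgfr2+ FB as ESAM-1−PDPNhiCD34+CD90− cells. The gates thus differed only in the level of podoplanin (PDPN). Neither CD81 nor FGFR2 protein was gated, so the transcripts behind both names could be read as a check of the names.

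Fibroblasts of the gut wall build its collagen scaffold and send signals that set where epithelial stem cells divide and where their progeny mature. Adventitial fibroblasts lie around larger vessels and in the deeper wall, and are known for secreting BMP antagonists and Wnt modulators, which favour the stem cell zone at the crypt base. Interstitial fibroblasts fill the lamina propria between the crypts, where the BMP signal is stronger.

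The deposited values were estimated counts of transcripts, which were summed here to genes. Totals were 16181861, 18710840 and 13102446 in CD81+ replicates 1, 2 and 3, and 8740291, 9785938 and 9690792 in Fgfr2+ replicates 1, 2 and 3. Every CD81+ library was thus deeper than every Fgfr2+ library. Genes with at least 6 counts numbered 13070, 13891 and 15190 in CD81+ FB and 13844, 14564 and 14036 in Fgfr2+ FB. With counts thinned at random to the smallest total of the 6 libraries, 69 genes were called in place of the 68 given below.

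The CD81+ libraries were further from each other than the Fgfr2+ libraries were. On the first principal component, which held 33.6% of the variance of log2 levels, CD81+ replicate 1 lay at -174, the other CD81+ libraries at -4.90 and 15.3, and the Fgfr2+ libraries at 60.4, 53.7 and 49.7. On the next component, which held 27.1%, CD81+ replicate 2 lay at -142, Fgfr2+ replicate 1 at 92.5 and the other 4 libraries between -28.8 and 43.7. Fgfr2+ replicate 1 also lay at -98.4 on the component after that, which held 17.8%, with the other libraries between -51.4 and 75.9. The coefficient of biological variation common to all genes was 0.820 among the CD81+ libraries and 0.620 among the Fgfr2+ libraries. It was 0.597, 0.696 and 0.755 among the CD81+ libraries without replicate 1, 2 or 3. There a gene needed those counts in both remaining libraries, a stricter filter. These values therefore cannot be set against 0.820 as the effect of leaving a library out. *Adamdec1*, which encodes a metalloprotease made by interstitial fibroblasts, was at 2333, 298 and 101 CPM in CD81+ FB and at 8642, 7042 and 8099 CPM in Fgfr2+ FB. CPM are counts brought to the same library size by TMM scaling across the 30 libraries, given in the order of the replicate numbers. The level in CD81+ replicate 1 lay between those of the other CD81+ libraries and those of Fgfr2+ FB. Fold changes are therefore also given without CD81+ replicate 1, and the number of calls without each library. In log2 levels, CD81+ replicate 1 correlated at most at 0.794 with its own group and at 0.769 with Fgfr2+ FB. CD81+ replicate 3 reached 0.833 with its own group and 0.838 with Fgfr2+ FB, so replicate 1 was not the only library that stood apart.

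The question put to the names was whether the transcripts *Cd81*, *Ackr4* and *Fgfr2* separated the sorted populations. *Cd81* (chromosome 7, 143052739-143067934, GRCm38) encodes a tetraspanin of the cell surface, and was at 401, 445 and 278 CPM in CD81+ FB and 31.7, 10.9 and 142 CPM in Fgfr2+ FB. The groups did not overlap, and the Fgfr2+ libraries were far apart, with replicate 3 above the others. The log2 fold change, CD81+ minus Fgfr2+ throughout, was 2.59 ± 0.75 (SE), and the edgeR quasi-likelihood test gave an adjusted p of 0.218, which misses the threshold of 0.05. Without CD81+ replicate 1 the log2 fold change was 2.55. *Cd81* was called by DESeq2, with no filter on low counts, and without Fgfr2+ replicate 3, at a log2 fold change of 4.16, and in none of the other 14 refits. A p that misses the threshold does not show that values did not differ. In bulk samples, fewer cells of a type and less RNA per cell cannot be told apart, here or below.

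*Ackr4* (chromosome 9, 104084157-104126933) encodes an atypical receptor that takes up the chemokines CCL19, CCL21 and CCL25 without signalling through G proteins. Its levels were 355, 641 and 433 CPM in CD81+ FB and 4.61, 2.64 and 26.9 CPM in Fgfr2+ FB. All CD81+ libraries were far above all Fgfr2+ libraries, of which replicate 3 was again the highest. The difference was 5.38 ± 0.83 in log2 fold change (edgeR adjusted p = 0.0272), and 5.56 without CD81+ replicate 1. The call was lost without CD81+ replicate 2 or 3 or without Fgfr2+ replicate 1 or 2, and the log2 fold change stayed between 4.92 and 7.06 in 17 refits that each changed 1 choice or left out 1 library.

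*Fgfr2* (chromosome 7, 130162451-133123350) encodes a receptor tyrosine kinase for fibroblast growth factors. It was at 259, 179 and 51.6 CPM in CD81+ FB and at 522, 460.2 and 447 CPM in Fgfr2+ FB. Every Fgfr2+ library was above every CD81+ library, of which replicate 3 was the lowest. The difference did not pass (log2 fold change -1.57 ± 0.49, edgeR adjusted p = 0.276), and was -2.05 without CD81+ replicate 1. *Fgfr2* was thus present in both populations. *Cd81* and *Fgfr2*, the transcripts behind the names, had the direction of the names but missed the threshold. *Ackr4*, which is in neither name, passed it.

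None of the genes of the sort was called by edgeR. *Ncam1*, which encodes the NCAM gated out where high, passed the p threshold but not the fold threshold (given below). *Pdpn*, which encodes the protein whose level set the gates apart, was at 60.8, 31.1 and 29.7 CPM in CD81+ FB and 40.1, 59.5 and 52.1 CPM in Fgfr2+ FB. These ranges overlapped through CD81+ replicate 1 alone, and the other CD81+ libraries were below every Fgfr2+ library. The log2 fold change was -0.34 ± 0.50 (edgeR adjusted p = 0.897), and -0.74 without that library. *Cd34*, which encodes a sialomucin used to select both populations, was at 1342, 1047 and 843 CPM and 549, 389.9 and 551 CPM, higher in every CD81+ library (log2 fold change 1.1, edgeR adjusted p = 0.199). *Thy1*, which encodes the CD90 that both gates left out, was at 124, 115 and 59.4 CPM in CD81+ FB and 29.5, 23.8 and 27.1 CPM in Fgfr2+ FB. It was higher in every CD81+ library (log2 fold change 1.87, edgeR adjusted p = 0.147, called only by DESeq2 among the refits), and was at 196 ± 50.2 CPM (mean ± SD of 3 libraries) in colonic CD90+ FB. *Pdgfra*, which encodes the PDGF receptor common to these fibroblasts, overlapped between the groups, at 995, 1076 and 716 CPM and 651, 729 and 801 CPM. *Esam*, which encodes the protein that both gates left out, stayed below 0.5 CPM in all 6 libraries and was too low to test.

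**Figure D1:**
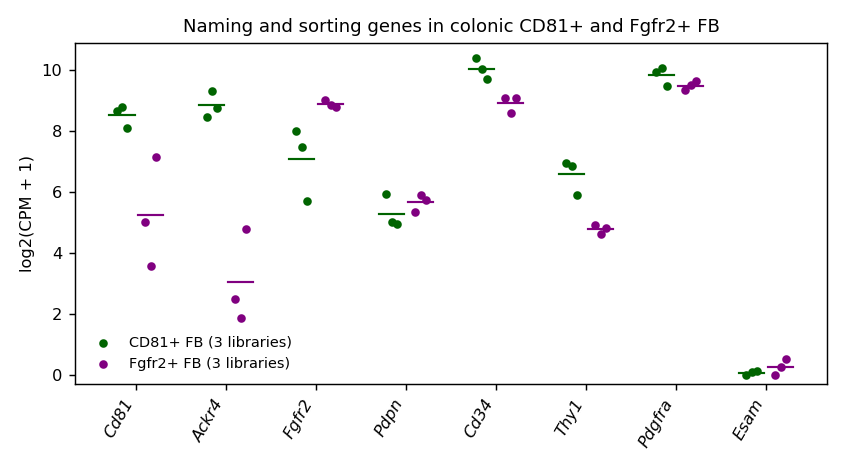
Levels, as log2 of CPM plus 1, in the 3 colonic CD81+ and the 3 colonic Fgfr2+ libraries. The genes are those behind the population names, *Ackr4* and those of the sort. Each point is 1 library and each bar the mean of its group on that scale. *Ackr4* lay between 355 and 641 CPM in CD81+ FB and between 2.64 and 26.9 CPM in Fgfr2+ FB, while *Pdpn* and *Pdgfra* overlapped.

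Across the genome the comparison asked which transcripts differ beyond the spread between replicates. Of 14477 genes tested, 68 (0.47%) were called, which here means an adjusted p below 0.05 together with a log2 fold change beyond 1.5 in either direction. Of these, 39 (0.269%) were higher in CD81+ FB and 29 (0.2%) in Fgfr2+ FB, and 66 encode proteins. The groups did not overlap for any of the 68, whereas they did not overlap for 2207 (15.2%) of all genes tested. The median log2 fold change of all genes tested was 0.06, with 7630 genes higher in CD81+ FB and 6847 higher in Fgfr2+ FB. Another 2 genes passed the p threshold alone, *Fbn1*, which encodes fibrillin-1, at a log2 fold change of 1.42 and *Ncam1*, which encodes the adhesion molecule NCAM, at -1.50.

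The number of calls depended on single libraries. Without CD81+ replicate 1 there were 129, and 59 of the 63 original calls that could still be tested were kept. Without CD81+ replicate 2 or 3 there were 17 and 27, and without Fgfr2+ replicate 1, 2 or 3 there were 7, 5 and 24. DESeq2 called 459 genes on the same counts, all of the 68 among them. Each of the 68 kept its direction in every refit in which it could be tested. *Ebf1* and *Tnc* were called in all 17 refits, and *Angptl1* and *Adgrg2* in all 14 that could test them, none of which left out a CD81+ library. Of the called genes that could be tested without each library, all but *Ebf1*, *Tnc* and *Adamtsl1* lost the call without at least 1 of them.

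Transcription factors of the EBF family (early B-cell factors, zinc-binding helix-loop-helix proteins) were named for B lymphocytes but are also made in connective tissue, fat and pericytes. *Ebf1* (chromosome 11, 44617317-45008091) had the lowest adjusted p of the comparison. Its levels were 1059, 734 and 665 CPM in CD81+ FB and 13.6, 16.2 and 19.5 CPM in Fgfr2+ FB. All CD81+ libraries were far above all Fgfr2+ libraries, and neither group had a library far from its others. The log2 fold change was 5.62 ± 0.39 (edgeR adjusted p = 0.000271), 5.41 without CD81+ replicate 1, and between 5.41 and 5.79 over the 17 refits, in which the adjusted p did not exceed 0.0133. Among the other colonic populations, *Ebf1* was at 1184 ± 215 CPM (mean ± SD of 3 libraries) in pericytes, 29.5 ± 21.7 CPM in CD90+ FB and 6.73 ± 2.38 CPM in PDGFRahi FB. The level in CD81+ FB thus came after that in pericytes and far before those in the other fibroblasts.

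*Ebf3* (chromosome 7, 137193673-137314445), a close relative of *Ebf1*, was at 3.87, 62.0 and 59.5 CPM in CD81+ FB and 0.643, 0.294 and 0.65 CPM in Fgfr2+ FB. CD81+ replicate 1 was far below its group, though still above every Fgfr2+ library. Its log2 fold change was 6.28 ± 1.15 (edgeR adjusted p = 0.0472), and 6.82 without that library. Among the refits that left out 1 library, the call was lost without CD81+ replicate 2 or 3 or without any 1 of the Fgfr2+ replicates.

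Of 47 tested genes in a list of mesenchymal transcription factors, 4 were called higher in CD81+ FB and 1 in Fgfr2+ FB, at a median log2 fold change of -0.37, where all genes tested had 0.47% called and a median of 0.06. *Foxp2*, which encodes a forkhead repressor, was at 235, 295 and 339 CPM in CD81+ FB and 64.8, 71.4 and 61.5 CPM in Fgfr2+ FB (log2 fold change 2.12, edgeR adjusted p = 0.0328). *Creb5*, which encodes a bZIP factor that binds cAMP response elements, was at 1186, 926 and 1164 CPM and 365, 285 and 294 CPM (log2 fold change 1.78, edgeR adjusted p = 0.0328). In both cases the libraries of a group lay close together and the groups were well apart. *Tbx2* (chromosome 11, 85832551-85841948), which encodes a T-box repressor, had the opposite direction, at 1.37, 0.123 and 0.678 CPM in CD81+ FB and 19.5, 38.7 and 54.0 CPM in Fgfr2+ FB. It was close to 0 in all CD81+ libraries (log2 fold change -5.70 ± 1.02, edgeR adjusted p = 0.043). Without CD81+ replicate 1 these log2 fold changes were 2.27 for *Foxp2*, 1.73 for *Creb5* and -6.56 for *Tbx2*, and all 3 were called. Their calls were lost without any other 1 of the 6 libraries.

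Secreted inhibitors of BMP and Wnt proteins shape the gradients along the crypt. *Grem1* (chromosome 2, 113746164-113758646) encodes gremlin 1, which binds BMP ligands and keeps them from their receptors. It was at 2272, 1677 and 2051 CPM in CD81+ FB and 161, 389.6 and 504 CPM in Fgfr2+ FB. Every CD81+ library was above every Fgfr2+ library, yet the transcript was not rare in Fgfr2+ FB. For *Grem1* the log2 fold change was 2.50 ± 0.41 (edgeR adjusted p = 0.0328) and 2.41 without CD81+ replicate 1. It was called in 10 of 17 refits, and the call was lost without CD81+ replicate 2 or 3 or without any 1 of the Fgfr2+ replicates. Of all 14477 genes tested, 0.47% were called and 7630 were higher in CD81+ FB, with a median log2 fold change of 0.06. Among 12 tested BMP and activin antagonists *Grem1* was the only call, and 9 were higher in CD81+ FB, with a median of 0.49. *Chrd*, which encodes the antagonist chordin, ran the other way, at 7.49, 10.8 and 10.7 CPM in CD81+ FB and 45.2, 25.1 and 25.7 CPM in Fgfr2+ FB, and was not called.

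None of 10 tested BMP ligands was called by edgeR (median log2 fold change -0.61). *Bmp5* came near the threshold, at 171, 33.1 and 35.5 CPM in CD81+ FB and 689.7, 678 and 508 CPM in Fgfr2+ FB (edgeR adjusted p = 0.0728). *Bmp4*, the most abundant ligand per length, was at 1641, 972 and 558 CPM and 1583, 2052 and 2114 CPM. Its groups overlapped through CD81+ replicate 1, while those of *Bmp5* did not overlap.

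*Sfrp4* (chromosome 13, 19623104-19632994) encodes a secreted frizzled-related protein, which binds Wnt ligands outside the cell. It was at 174, 235 and 59.0 CPM in CD81+ FB and 6.32, 1.76 and 3.69 CPM in Fgfr2+ FB, so that the lowest CD81+ library, replicate 3, was still well above the highest Fgfr2+ library. The log2 fold change was 5.29 ± 0.71 (edgeR adjusted p = 0.0138) and 5.21 without CD81+ replicate 1. The call was lost without any 1 of the Fgfr2+ replicates. *Sfrp1*, of the same family, had the opposite direction, at 1412, 1548 and 1216 CPM in CD81+ FB and 3344, 3420.2 and 3619 CPM in Fgfr2+ FB. It missed the thresholds of both p and fold (log2 fold change -1.33, edgeR adjusted p = 0.055). *Sfrp4* was the only call among 9 tested Wnt antagonists, whose median log2 fold change was -0.20, and 0.04 without CD81+ replicate 1. Among all genes tested, 0.47% were called. None of 11 tested Wnt ligands and R-spondins was called by edgeR (median 1.09), and 4 of them were higher in every CD81+ library and 2 in every Fgfr2+ library, while 15.2% of all genes tested did not overlap.

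Fibroblast growth factors pass between stroma and epithelium, and *Fgf10* encodes a ligand best known for acting on the epithelial form of FGFR2. *Fgf10* (chromosome 13, 118669791-118792115) was at 18.9, 9.28 and 17.0 CPM in CD81+ FB and 149, 185 and 149.9 CPM in Fgfr2+ FB. The libraries of each group lay close together and the groups were far apart. Between them the log2 fold change was -3.44 ± 0.46 (edgeR adjusted p = 0.0138) and -3.62 without CD81+ replicate 1, and the call was lost without any 1 of the Fgfr2+ replicates. It was at 127 ± 16 CPM in CD90+ FB and 22.1 ± 5.2 CPM in PDGFRahi FB. It was the only call among 12 tested FGF ligands and receptors (median 0.73), where 0.47% of all genes tested were called (median 0.06). *Fgf18*, another ligand, was at 11.6, 43.5 and 28.4 CPM in CD81+ FB and 0.107, 0 and 0.65 CPM in Fgfr2+ FB, near 0 in the latter, and missed the threshold (edgeR adjusted p = 0.0574). *Fgfr1*, the most abundant gene of the list per length, was at 682, 579 and 703 CPM and 266, 284 and 381 CPM, higher in every CD81+ library and not called.

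Complement proteins are made by many stromal cells, and C3 is the protein on which all routes of complement activation meet. *C3* (chromosome 17, 57203970-57228136) was at 7266, 15554 and 8881 CPM in CD81+ FB and 455, 1195 and 2453 CPM in Fgfr2+ FB. The groups did not overlap, and the Fgfr2+ libraries differed among themselves by more than the CD81+ libraries did on the log scale. Its log2 fold change was 2.94 ± 0.55 (edgeR adjusted p = 0.0487) and 3.16 without CD81+ replicate 1, with the call lost without CD81+ replicate 2 or 3 or without Fgfr2+ replicate 1 or 2. It was the only call among 18 tested complement genes, 12 of them higher in CD81+ FB (median 0.78). Of all 14477 genes tested, 0.47% were called and 7630 were higher in CD81+ FB (median 0.06).

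Several of the genes highest in CD81+ FB were close to absent from Fgfr2+ FB. *Efhd1* (chromosome 1, 87264363-87310839) encodes a mitochondrial calcium-binding protein, and was at 60.4, 114 and 14.8 CPM in CD81+ FB with no count in any Fgfr2+ library. Taking 3 counts over the 3 Fgfr2+ libraries as the floor, the mean of the CD81+ levels was at least 604-fold higher. With counts pooled over the CD81+ libraries the bound was 658-fold, and 366-fold without CD81+ replicate 2. The edgeR adjusted p was 0.0144. Such a floor covers counting error only. With 1 CD81+ library left out it no longer passed the filter on low counts, and the call was lost without any 1 of the Fgfr2+ replicates.

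*Angptl1* (chromosome 1, 156838562-156861078) encodes a secreted protein of the angiopoietin-like family, and was at 115, 120.0 and 208 CPM in CD81+ FB and 0, 0.196 and 0.542 CPM in Fgfr2+ FB. *Adgrg2* (chromosome X, 160390690-160498070) encodes an adhesion G protein-coupled receptor, and was at 72.5, 120.1 and 54.0 CPM and 0.214, 0.0979 and 0.542 CPM. In neither case did an Fgfr2+ library reach 1 CPM or a CD81+ library fall under 50 CPM. The log2 fold change was 9.17 ± 0.89 for *Angptl1* (edgeR adjusted p = 0.00275). For *Adgrg2* it was 8.12 ± 0.83 (edgeR adjusted p = 0.00293). Neither could be tested without CD81+ replicate 1, since too few libraries then held counts. *Brinp3*, named for its induction by BMP and retinoic acid in nerve cells, was at 19.5, 98.9 and 43.5 CPM and 0.536, 0 and 0.434 CPM, and *Ifi207*, of a family of interferon-inducible nuclear proteins, at 14.5, 85.4 and 25.3 CPM and 0.107, 0.0979 and 0.542 CPM. CD81+ replicate 1 was the lowest of its group for both, and neither could be tested without it.

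*Pcolce2* (chromosome 9, 95637601-95698096) encodes an enhancer of procollagen processing, and was at 572, 636 and 308 CPM in CD81+ FB and 1.29, 5.48 and 27.3 CPM in Fgfr2+ FB (log2 fold change 5.46 ± 0.93, edgeR adjusted p = 0.0368). *Scara5* (chromosome 14, 65666403-65764826) encodes a scavenger receptor that takes up ferritin, and was at 376, 391 and 146 CPM and 7.07, 11.7 and 19.5 CPM (log2 fold change 4.56 ± 0.56, edgeR adjusted p = 0.00963). For both, Fgfr2+ replicate 3 was the highest of its group, as it was for *Cd81* and *Ackr4*, and CD81+ replicate 3 the lowest. *Tmeff2*, which encodes a membrane protein with follistatin-like domains, was at 83.1, 17.8 and 27.6 CPM and 1.61, 2.35 and 1.41 CPM. CD81+ replicate 1 was the highest there, and the call was lost without any 1 of the 6 libraries. Without CD81+ replicate 1 the log2 fold changes were 5.37 for *Pcolce2*, 4.39 for *Scara5* and 3.66 for *Tmeff2*.

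A list of 22 adventitial fibroblast markers covered several of these genes. All 22 were tested and higher in CD81+ FB, 20 of them without overlap, and 6 were called, *Ackr4*, *Igfbp6*, *Efhd1*, *Pcolce2*, *Grem1* and *C3*. Of all genes tested, 15.2% did not overlap and 0.47% were called. The median log2 fold change was 1.79, also with *Efhd1* at its bound. Summed levels were 23007, 35840.0 and 24382 CPM in CD81+ FB and 5129, 6586 and 10642 CPM in Fgfr2+ FB. The list holds genes that the study used to name these cells, so its direction is no independent evidence. *Igfbp6*, which encodes a binding protein that prefers IGF-II, was at 78.3, 196 and 133 CPM in CD81+ FB and 19.6, 16.8 and 24.9 CPM in Fgfr2+ FB (log2 fold change 2.72 ± 0.49, edgeR adjusted p = 0.0442). *Pi16*, which encodes a secreted peptidase inhibitor, missed the threshold at 148, 372 and 121 CPM and 11.4, 10.4 and 73.2 CPM (edgeR adjusted p = 0.214), and here Fgfr2+ replicate 3 was again the highest of its group.

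**Figure D2:**
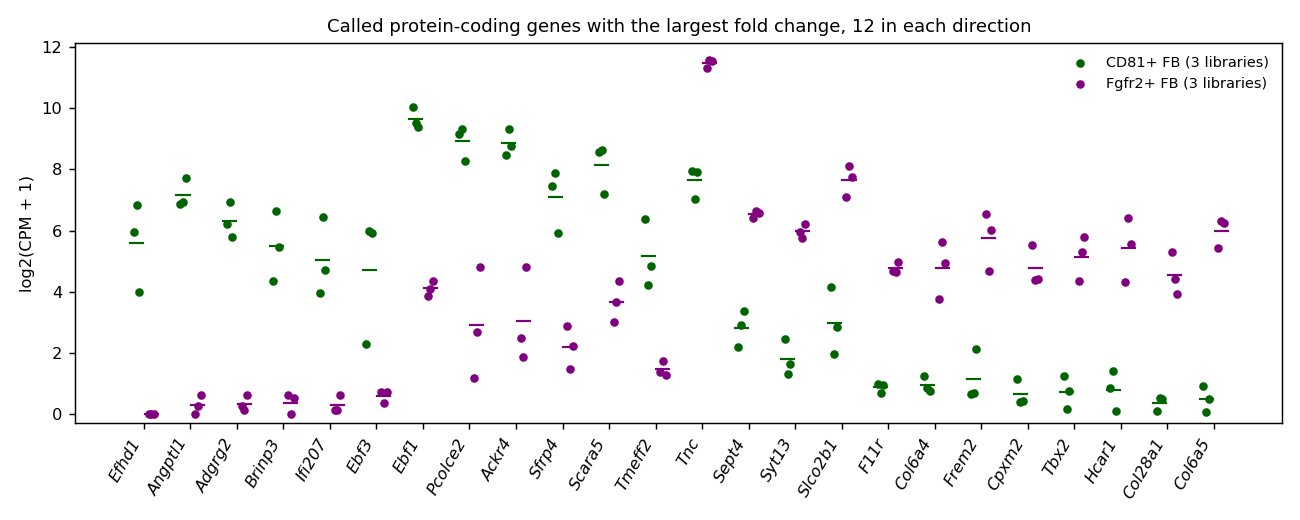
Levels, as log2 of CPM plus 1, of the 12 called protein-coding genes with the largest fold in each direction, each point 1 of the 3 colonic CD81+ or 3 colonic Fgfr2+ libraries and each bar a group mean on that scale. The groups did not overlap for any of these genes, and CD81+ replicate 1 was far below the rest of its group for *Ebf3*.

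Among the genes higher in Fgfr2+ FB, *Tnc* (chromosome 4, 63959785-64047015) had the lowest adjusted p. It encodes tenascin-C, a glycoprotein of the matrix that loosens cell adhesion and is plentiful under the gut epithelium and in healing tissue. Its levels were 248, 129.7 and 243 CPM in CD81+ FB and 2541, 3020.2 and 2996 CPM in Fgfr2+ FB. Each group was tight and the groups were far apart. The log2 fold change was -3.80 ± 0.35 (edgeR adjusted p = 0.00242), -3.94 without CD81+ replicate 1, and between -3.94 and -3.55 over the 17 refits, in which the adjusted p did not exceed 0.0244. *Tnc* was at 2431 ± 283 CPM in colonic PDGFRahi FB, 939 ± 352 CPM in CD90+ FB and 269.8 ± 113 CPM in pericytes. The means of Fgfr2+ FB and PDGFRahi FB were the highest of the 5 colonic populations, and that of CD81+ FB the lowest. *Tnc* was the only call among 18 tested matricellular proteins, of which 9 were higher in each population. Over all genes tested, 0.47% were called.

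Further called genes were higher in Fgfr2+ FB. *Slco2b1* (chromosome 7, 99657804-99711340), which encodes a transporter of organic anions, was at 16.7, 2.89 and 6.19 CPM in CD81+ FB and 135, 274 and 214 CPM in Fgfr2+ FB (log2 fold change -4.62 ± 0.67, edgeR adjusted p = 0.0209). *Frem2*, which encodes a large matrix protein that links epithelia to the basement membrane, was at 0.564, 0.615 and 3.39 CPM and 92.0, 24.7 and 64.0 CPM (log2 fold change -5.31 ± 0.96, edgeR adjusted p = 0.0442). *Hcar1*, which encodes the receptor for lactate, was at 0.806, 1.66 and 0.0848 CPM and 19.0, 83.5 and 45.7 CPM. Levels in CD81+ FB stayed under 4 CPM for *Frem2* and under 2 CPM for *Hcar1*, whereas *Slco2b1* was above 2 CPM in each CD81+ library. *F11r*, which encodes the junctional adhesion molecule JAM-A, was at 0.967, 0.615 and 0.932 CPM and 24.4, 24.2 and 30.1 CPM. *Syt13*, which encodes a synaptotagmin, was at 4.43, 1.48 and 2.12 CPM and 61.0, 53.6 and 72.6 CPM. *Sept4*, which encodes a septin of the cytoskeleton, was at 3.55, 6.52 and 9.32 CPM and 84.5, 98.3 and 94.7 CPM. For these 3 genes the Fgfr2+ libraries lay close together. *Cpxm2*, which encodes a member of the carboxypeptidase family, was at 1.21, 0.307 and 0.339 CPM and 45.1, 19.8 and 20.3 CPM. Without CD81+ replicate 1 all of these but *Hcar1* were called, at log2 fold changes of -5.52 for *Slco2b1*, -4.92 for *Frem2*, -5.07 for *F11r*, -5.11 for *Syt13*, -3.55 for *Sept4* and -6.42 for *Cpxm2*. Of 17 refits, the call was lost in 4 for *Slco2b1*, 5 for *Sept4* and 6 for *Frem2*, *Syt13* and *Cpxm2*. It was lost in 7 for *F11r* and 8 for *Hcar1*.

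Collagens form fibrils (types I, III and V), networks such as the beaded filaments of type VI, and linkers along the fibrils such as types XII and XIV. Of 38 tested, 2 were called higher in CD81+ FB and 5 in Fgfr2+ FB, with a median log2 fold change of 0.23, against calls for 0.47% and a median of 0.06 over all genes tested. *Col8a1*, which encodes a short-chain network collagen, was at 1986, 1786 and 3327 CPM in CD81+ FB and 159, 143 and 356 CPM in Fgfr2+ FB (log2 fold change 3.42 ± 0.44, edgeR adjusted p = 0.0118). *Col14a1*, which encodes a linker along the fibrils, was at 3430.2, 4541 and 4264 CPM and 579.9, 947 and 1496 CPM (log2 fold change 2.01 ± 0.36, edgeR adjusted p = 0.043). In both genes every CD81+ library was above every Fgfr2+ library, and Fgfr2+ replicate 3 was the highest of its group. *Col12a1*, which encodes the linker most like type XIV, had the opposite direction, at 960.3, 221 and 416 CPM in CD81+ FB and 3201, 4062 and 3501 CPM in Fgfr2+ FB (log2 fold change -2.77 ± 0.47, edgeR adjusted p = 0.0368).

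Type VI collagen showed opposite directions among its chains. *Col6a5* (chromosome 9, 105856078-105960643) encodes an alternative chain, and was at 0.886, 0.0615 and 0.424 CPM in CD81+ FB and 42.1, 77.8 and 75.3 CPM in Fgfr2+ FB (log2 fold change -7.17 ± 0.94, edgeR adjusted p = 0.0128). *Col6a4*, which encodes another, was at 1.37, 0.799 and 0.678 CPM and 12.5, 48.2 and 29.4 CPM (log2 fold change -4.99 ± 0.90, edgeR adjusted p = 0.0444). Both were near 0 in every CD81+ library. *Col6a3*, which encodes the usual partner chain, was at 3766, 3661 and 4828 CPM in CD81+ FB and 1584, 1277 and 1835 CPM in Fgfr2+ FB, higher in every CD81+ library and not called (log2 fold change 1.37, edgeR adjusted p = 0.0666). *Col6a1* and *Col6a2*, which encode the chains common to all type VI collagen, overlapped between the groups. Per kilobase of transcript, the mean level in Fgfr2+ FB was 9.55 CPM for *Col6a5* and 193 CPM for *Col6a3*, so the alternative chain remained the rarer.

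*Col28a1*, which encodes a beaded collagen of basement membranes, was at 0.0806, 0.43 and 0.424 CPM in CD81+ FB and 38.0, 20.2 and 14.3 CPM in Fgfr2+ FB (log2 fold change -6.23 ± 1.07, edgeR adjusted p = 0.0371). *Col27a1*, which encodes a fibrillar collagen, was at 36.1, 12.5 and 41.1 CPM and 210.2, 227 and 325 CPM (log2 fold change -3.10 ± 0.50, edgeR adjusted p = 0.0328). The groups did not overlap for either gene. Without CD81+ replicate 1 all 7 collagens were called, at log2 fold changes of 3.55 for *Col8a1*, 2.13 for *Col14a1*, -3.49 for *Col12a1*, -8.10 for *Col6a5*, -5.32 for *Col6a4*, -5.79 for *Col28a1* and -3.24 for *Col27a1*. Of 17 refits, the call was lost in 3 for *Col8a1* and 4 for *Col6a5*. It was lost in 6 for *Col14a1*, *Col12a1* and *Col27a1*, and in 7 for *Col6a4* and *Col28a1*. *Col3a1*, the most abundant collagen per length, overlapped between the groups, at 12917, 9830.4 and 19986 CPM in CD81+ FB and 8241, 7689.8 and 13191 CPM in Fgfr2+ FB.

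**Figure D3:**
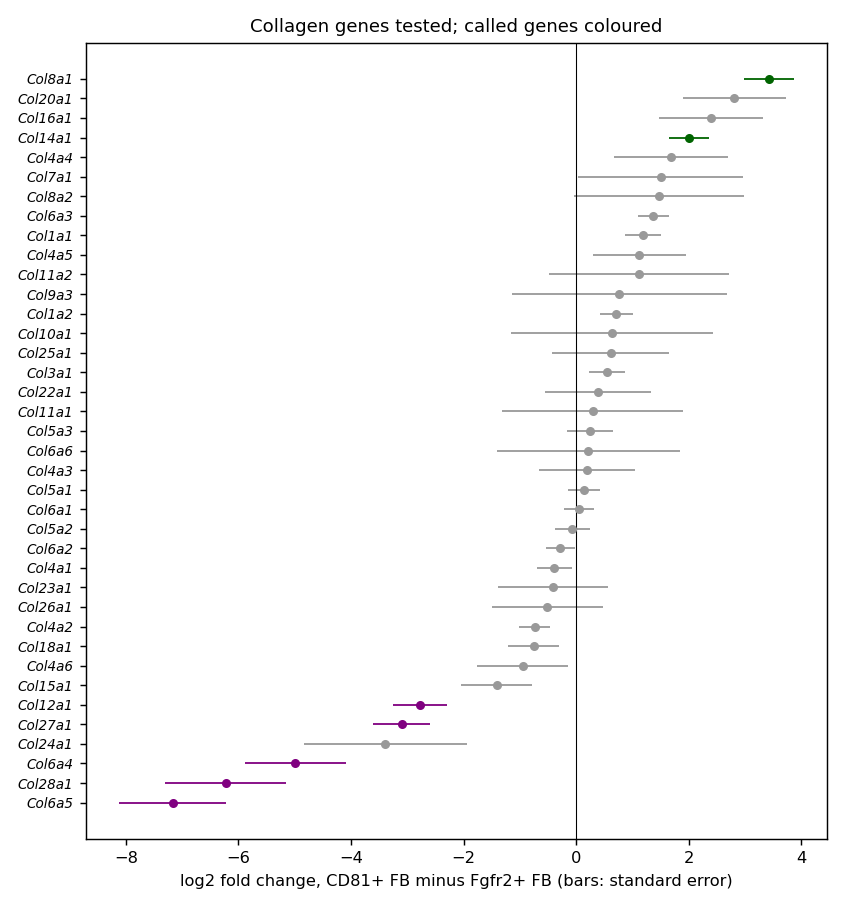
Log2 fold change of the 38 tested collagen genes between colonic CD81+ and Fgfr2+ FB, 3 libraries each, with bars of 1 SE to either side and called genes in colour. *Col8a1* and *Col14a1* were called higher in CD81+ FB, and *Col6a5*, *Col28a1*, *Col6a4*, *Col27a1* and *Col12a1* in Fgfr2+ FB.

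Lists of matrix proteases, basement membrane genes and guidance genes held few calls, and those were higher in CD81+ FB. *Adamtsl1*, which encodes an ADAMTS-like matrix protein, was at 369.7, 279 and 297 CPM in CD81+ FB and 14.8, 23.0 and 22.5 CPM in Fgfr2+ FB (log2 fold change 3.96 ± 0.39, edgeR adjusted p = 0.00275). *Adamts5*, which encodes a protease that cleaves aggrecan and versican, was at 523, 502 and 329 CPM and 87.5, 84.5 and 121 CPM (log2 fold change 2.19 ± 0.35, edgeR adjusted p = 0.0294). These were the calls among 27 tested matrix proteases and inhibitors, of which 16 were higher in CD81+ FB and 11 in Fgfr2+ FB, and in both the groups were well apart. *Nid1*, which encodes the basement membrane protein nidogen-1, was at 4495, 3127 and 2271 CPM and 1063, 858 and 1016 CPM, the only call among 22 tested basement membrane genes, of which 11 were higher in each population. Its log2 fold change was 1.73, and 1.46 without CD81+ replicate 1, below the fold threshold. *Slit3*, which encodes a secreted guidance protein for nerves and vessels, was at 2213, 2584 and 1634 CPM and 287, 391 and 535 CPM (log2 fold change 2.39 ± 0.33, edgeR adjusted p = 0.016). *Sema3d*, which encodes a secreted semaphorin, was at 199, 93.2 and 128 CPM and 7.39, 19.8 and 20.2 CPM (log2 fold change 3.13 ± 0.55, edgeR adjusted p = 0.0411). They were the calls among 21 tested genes of semaphorins, slits, netrins and their receptors, and were higher in every CD81+ library. Of these 21 genes, 10 were higher in CD81+ FB and 11 in Fgfr2+ FB, 4 and 5 of them without overlap. Over all genes tested, 0.47% were called and 15.2% did not overlap.

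The names of the populations were also set against lists of markers of other cells. Of 9 lamina propria interstitial markers tested, 8 were higher in Fgfr2+ FB, 5 of them without overlap (15.2% of all genes tested had none), and none was called by edgeR (median log2 fold change -1.35). Their summed levels were 4465, 2415 and 2176 CPM in CD81+ FB and 11419, 10459 and 11491 CPM in Fgfr2+ FB. CD81+ replicate 1 held about as much as its other libraries together, and without it the median was -2.06. Of 13 tested markers of PDGFRa-high subepithelial fibroblasts, 9 were higher in Fgfr2+ FB, 8 of them without overlap, and 4 in CD81+ FB, 2 of them without overlap. None was called by edgeR (median -2.03, and -2.98 without CD81+ replicate 1). Of 3 pericryptal CD90 fibroblast markers, 2 were higher in Fgfr2+ FB and none was called by edgeR.

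Genes of pericytes and smooth muscle were low in both populations but not equal. *Rgs5* (chromosome 1, 169655501-169695813) encodes a regulator of G protein signalling known from pericytes, and was at 63.1, 29.8 and 23.6 CPM in CD81+ FB and 373, 427 and 520.2 CPM in Fgfr2+ FB. The groups were far apart (log2 fold change -3.52 ± 0.45, edgeR adjusted p = 0.0114, and -4.04 without CD81+ replicate 1). Colonic pericytes held 32958 ± 7836 CPM. *Rgs5* was the only call and, per length, the most abundant of 10 pericyte markers, of which 8 were tested. Their summed levels were 237, 154 and 153 CPM in CD81+ FB and 559.9, 662 and 762 CPM in Fgfr2+ FB (median log2 fold change -1.88). Of the 8 tested, 5 were higher in Fgfr2+ FB, 3 of them without overlap, and 3 in CD81+ FB, 1 of them without overlap (of all genes tested, 0.47% were called and 15.2% did not overlap). The latter was *Abcc9*, which encodes a subunit of a potassium channel, at 131, 91.1 and 88.5 CPM in CD81+ FB and 51.4, 56.3 and 81.2 CPM in Fgfr2+ FB. None of the 10 was at 0 in all 6 libraries. *Acta2* (chromosome 19, 34241090-34255590) encodes smooth muscle actin, and was at 30.2, 13.1 and 9.83 CPM in CD81+ FB and 144, 162 and 273 CPM in Fgfr2+ FB (log2 fold change -3.46 ± 0.54, edgeR adjusted p = 0.028, and -4.07 without CD81+ replicate 1). It was at 2696 ± 524 CPM in colonic pericytes and 1014 ± 379 CPM in PDGFRahi FB. It was the only call and, per length, the most abundant of 12 smooth muscle markers, 11 of them tested, whose sums overlapped at 581, 436 and 294 CPM and 523, 513 and 769 CPM. Of the 11, 8 were higher in Fgfr2+ FB, 3 of them without overlap, and 3 in CD81+ FB, 1 of them without overlap (median -1.03, and -2.05 without CD81+ replicate 1). *Myh11*, which encodes the myosin of smooth muscle, overlapped at 90.6, 12.1 and 16.4 CPM and 64.5, 26.4 and 86.4 CPM. The part of other cells in the difference of *Rgs5* and *Acta2* was not tested.

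Lists of markers of other cell types gave low sums. Immune cell markers summed to 9.59, 10.9 and 16.1 CPM in CD81+ FB and 42.4, 35.4 and 42.3 CPM in Fgfr2+ FB, with *Cd74* the most abundant per length and *Cd52* and *Cd3e* at 0 in all 6 libraries. Of 12 such genes 5 were tested, all higher in Fgfr2+ FB, 4 of them without overlap (15.2% of all genes tested had none). Their median log2 fold change was -2.50, and none was called by edgeR. Endothelial markers, 5 of 10 tested, summed to 75.1, 47.3 and 68.9 CPM and 39.9, 39.0 and 34.4 CPM, most of it *Pecam1*, and *Cdh5* stayed below 0.2 CPM. Epithelial markers, 2 of 10 tested, summed to 25.7, 1.54 and 6.70 CPM and 6.32, 6.36 and 2.38 CPM, with *Krt8* and *Car1* at 0. Glial and neuronal markers, 3 of 11 tested, summed to 5.72, 13.8 and 20.6 CPM and 19.9, 10.3 and 27.5 CPM, with *Gfap* and *Uchl1* among those at 0. Mesothelial markers, 1 of 7 tested, reached their highest sum of 16.5 CPM in CD81+ replicate 2. Red blood cell genes, 4 of 4, had no count in any library. No gene of these lists was called by edgeR, where 0.47% of all genes tested were called, so few calls could arise among so few tested genes.

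*Ighm*, which encodes the heavy chain of immunoglobulin M, was called although cells with lineage markers had been gated out. It was at 120.2, 47.2 and 77.1 CPM in CD81+ FB and 0.214, 0.587 and 3.69 CPM in Fgfr2+ FB (log2 fold change 5.75 ± 1.00, edgeR adjusted p = 0.0407, and 5.38 without CD81+ replicate 1). Every CD81+ library was far above every Fgfr2+ library. Other genes of B cells were looked up after this value had been seen. *Cd79b*, which encodes a partner chain of the B cell receptor, was at 0 in all 6 libraries. *Cd79a*, which encodes the other partner chain, was at 1.77, 0 and 2.29 CPM and 0, 0.0979 and 0.434 CPM. *Igkc*, which encodes the kappa light chain, was at 0.484, 0.0615 and 0.0848 CPM and 0.214, 52.1 and 2.28 CPM. *Ptprc*, which encodes the leukocyte marker CD45, overlapped at 7.25, 4.86 and 3.31 CPM and 5.36, 4.31 and 5.85 CPM. *Ighm* was thus high without matching levels of these genes, and its source was not tested.

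The remaining lists held few calls. None of the genes tested was called by edgeR among 13 genes of TGF-beta ligands, receptors and latency proteins, 6 of PDGF, 12 of hedgehog, 9 of Notch, 9 of EGF ligands, 13 of retinoid handling, 14 of prostaglandins, 16 stromal cytokines, 22 of elastic fibres, 11 small leucine-rich proteoglycans, 16 of hyaluronan, 25 Hox genes, 16 adhesion and sorting molecules, 19 interferon-induced and 10 cell cycle genes. None was called either among 5 lymphoid tissue stromal markers and 2 markers of interstitial cells of Cajal. The share called of all genes tested was 0.47%. *Igfbp6* was the only call among 9 IGF genes, *Angptl1* among 12 angiogenic factors and *Ackr4* among 26 chemokines and atypical chemokine receptors. *Hspb8*, which encodes a small heat shock protein, was the only call among 12 heat shock genes, at 162, 271 and 200.0 CPM in CD81+ FB and 40.0, 36.0 and 61.5 CPM in Fgfr2+ FB. *Cxcl12*, a chemokine that holds leukocytes and guides vessels, was at 452, 394 and 205 CPM in CD81+ FB and 952, 1217 and 1074 CPM in Fgfr2+ FB. All Fgfr2+ libraries were above all CD81+ libraries, short of the threshold (log2 fold change -1.64, edgeR adjusted p = 0.0859).

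Colonic CD90+ FB, sorted as PDPNhiCD34+ cells that carry CD90, were set beside both populations. *Ackr4* was at 19.4 ± 17.3 CPM (mean ± SD of 3 libraries) in CD90+ FB, against 476 ± 148 CPM in CD81+ FB and 11.4 ± 13.5 CPM in Fgfr2+ FB. *Angptl1* was at 0.825 ± 0.86 CPM, against 147 ± 52.3 CPM and 0.246 ± 0.274 CPM. *Grem1* was at 394 ± 182 CPM, against 2000.0 ± 301 CPM and 352 ± 175 CPM. CD81+ FB stood alone among these fibroblasts for the 3 genes. *Scara5*, at 69.4 ± 7.26 CPM in CD90+ FB, and *Col8a1*, at 687 ± 134 CPM, lay between the others. *Fgf10* and *Slco2b1*, higher in Fgfr2+ FB, were also present in CD90+ FB, *Slco2b1* at 137 ± 45.8 CPM. These levels are a description and were not tested.

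The nearest contrast in libraries that the colonic comparison does not use was that of small intestinal CD34+ FB and small intestinal Fgfr2+ FB, 3 libraries each. It is not the same contrast, since the CD34+ gate there holds a mixture of populations and the Fgfr2+ gate took CD34− cells. Its shallowest library, Fgfr2+ replicate 3, held 2245052 counts. Of 14976 genes tested, 394 (2.63%) were called, 271 higher in CD34+ FB and 123 in Fgfr2+ FB. The count was 59, 62 and 70 without CD34+ replicate 1, 2 or 3, and 856, 769 and 840 without Fgfr2+ replicate 1, 2 or 3. All 68 genes called in the colon were tested, and 56 had the same direction, against 7485 of 14063 genes tested in both contrasts. Called in the same direction in both were 29, which is 42.6% of the colonic and 7.36% of the small intestinal calls, and 1 was called in opposite directions.

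Among the genes called in both, *Ackr4* had a small intestinal log2 fold change (CD34+ minus Fgfr2+) of 7.10 ± 0.34 (edgeR adjusted p = 0.000269). That of *Grem1* was 4.0 ± 0.36 (edgeR adjusted p = 0.00272) and that of *C3* 4.45 ± 0.49 (edgeR adjusted p = 0.00597). *Fgf10* had -1.91 ± 0.35 (edgeR adjusted p = 0.0327).

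Whether the colonic difference differed from the small intestinal one was tested as an interaction in 1 model of the 12 libraries. Of 15958 genes tested, 75 (0.47%) were called, and 18 of these were among the 68 colonic calls. The count of 75 became 127 without colonic CD81+ replicate 1 and 46 without colonic Fgfr2+ replicate 2. It was 38, 37 and 37 without small intestinal CD34+ replicate 1, 2 or 3. The interaction was the colonic log2 fold change minus the small intestinal one. For *Ebf1* it was 2.96 ± 0.43 (edgeR adjusted p = 0.00592), with the same direction in both tissues. In the small intestine, CD34+ FB held 77.6 ± 17.1 CPM of *Ebf1* and Fgfr2+ FB 12.2 ± 2.66 CPM.

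For *Angptl1* the interaction was 7.76 ± 0.88 (edgeR adjusted p = 0.00113). Its level in CD34+ FB of the small intestine, 158 ± 16.5 CPM, was near that in colonic CD81+ FB, while small intestinal Fgfr2+ FB held 59.5 ± 34.8 CPM and colonic Fgfr2+ FB 0.246 ± 0.274 CPM. The larger gap between the tissues was in Fgfr2+ FB, and was not tested on its own. *Tnc* had an interaction of -2.70 ± 0.42 (edgeR adjusted p = 0.00715), and here the small intestinal CD34+ FB, at 922 ± 351 CPM, were above the colonic CD81+ FB, at 207 ± 67.0 CPM. *Col28a1* was the gene called in opposite directions, with an interaction of -12.32 ± 1.55 (edgeR adjusted p = 0.00179). Small intestinal CD34+ FB held 3.06 ± 0.245 CPM of it and Fgfr2+ FB 0.023 ± 0.0399 CPM, so the size of its interaction rested on few counts. *Rgs5* had an interaction of -4.61 ± 0.46 (edgeR adjusted p = 0.000409). It was at 3778 ± 326 CPM in CD34+ FB and 1747 ± 263 CPM in Fgfr2+ FB of the small intestine, both above the colonic fibroblasts.

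**Figure D4:**
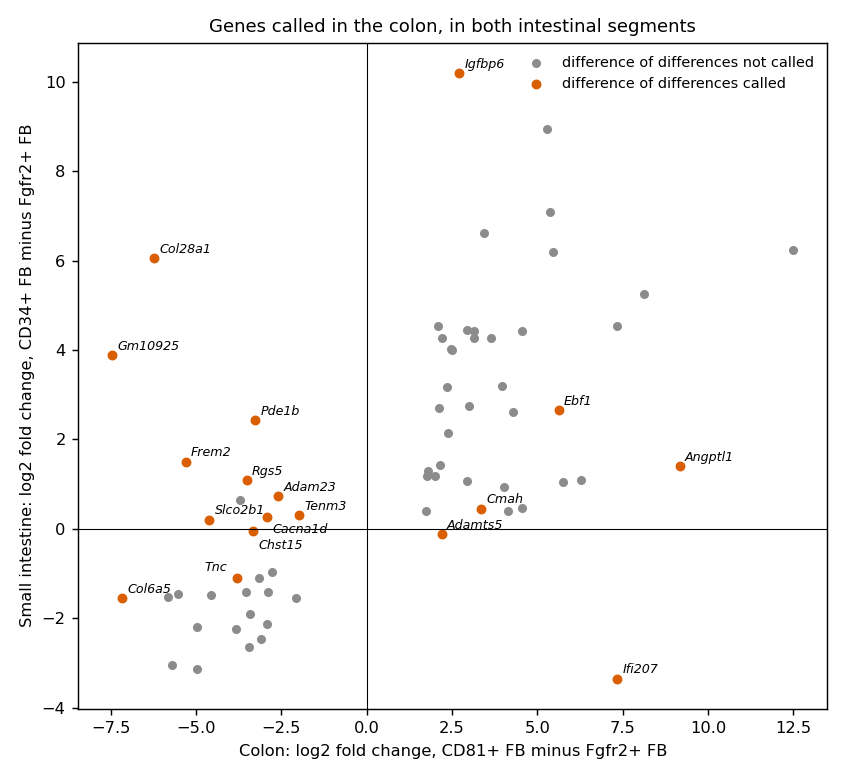
Log2 fold change of the 68 genes called in the colon (horizontal, CD81+ minus Fgfr2+ FB) against the log2 fold change of the same genes in the small intestine (vertical, CD34+ minus Fgfr2+ FB), each point 1 gene and coloured where the interaction was called. Of the 68 genes, 56 had the same direction in both tissues, and *Col28a1* was called in opposite directions.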

How the data were processed

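RNA of 10 sorted populations of mouse intestinal stromal cells, 3 libraries each, was amplified and sequenced by the authors, who checked reads with FastQC 0.11.2, trimmed them with Trim Galore 0.4.0 and quantified transcripts with kallisto 0.42.5. The deposited values are an estimated count (reads assigned to a transcript, not normalized) and a TPM for each of 98492 transcripts, and the authors' TPM was used only in 1 alternative. The transcript set was not named. Of the transcripts, 97116 matched GENCODE M21 (GRCm38) by identifier, giving 32342 genes and 98.2% to 99.1% of the counts of the 6 libraries compared.

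Counts were summed to genes and rounded. edgeR 4.0.16 (R 4.3.3) was run with TMM normalization and its default quasi-likelihood fit, robust estimation off, on genes that reached 6 counts in 3 or more libraries. Calls needed a Benjamini-Hochberg adjusted p (over all genes tested) below 0.05 and a log2 fold change beyond 1.5 in either direction. The SE was derived from the log2 fold change and the F statistic, as the ratio of its size to the root of F. Levels are CPM, and log2 CPM for principal components used a prior count of 2. When tested on simulated data, the procedure missed most of the smaller changes put in. It recovered 15 of 100 changes of 2 in log2 and 62 of 100 changes of 4, and called 7 other genes. DESeq2 recovered 31 and 82 of them and called 67 other genes. The smallest p of an exact two-sided test of 3 against 3 libraries is 0.1, and the edgeR test borrows dispersions from all genes. Intervals and floors cover counting error only.

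Named were the genes of the sort and of the population names, in each direction the 12 called protein-coding genes with the largest fold, no overlap and a mean of at least 10 CPM in the higher group, called members of gene lists (at most 4 a direction), other list members by their values, and genes that bear on depth or spread. Values of some list members are not reported here. Members and lists were chosen with earlier results of these data known. Alternatives comprised upper-quartile and RLE normalization, DESeq2 1.42.0, other filters, other fold thresholds, the replicate block, more libraries in the fit, length-scaled TPM counts, thinned counts, single transcripts, the newer quasi-likelihood of edgeR, and each library left out in turn. Figures were drawn with matplotlib 3.10.9.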

Additional observations from a re-analysis of the deposited data

Results flagged for a closer look

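The following results stood out because the difference between CD81+ and Fgfr2+ FB in the colon differed from that between CD34+ and Fgfr2+ FB in the small intestine by the edgeR test of the interaction. The values are the colonic log2 fold change minus the small intestinal one. Toward CD81+ FB in the colon they were 7.76 for *Angptl1*, 10.66 for *Ifi207*, 2.96 for *Ebf1* and 2.31 for *Adamts5*. Toward Fgfr2+ FB they were -5.65 for *Col6a5*, -12.32 for *Col28a1*, -6.83 for *Frem2*, -4.83 for *Slco2b1*, -2.70 for *Tnc* and -4.61 for *Rgs5*. *Igfbp6* had -7.60, being higher in CD81+ or CD34+ FB in both tissues and by more in the small intestine, where Fgfr2+ FB held almost no counts and the size of the value is loosely set. For *Ifi207* the value exceeded the colonic log2 fold change of 7.33, so it was not a smaller difference of the same direction in the small intestine. Colonic Fgfr2+ FB held almost no counts of *Ifi207*, so the size of its value is loosely set as well. The sorting gates of the tissues were not the same, so tissue and gate cannot be told apart in any of the values.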

How the results depend on the processing

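The edgeR comparison of colonic CD81+ with Fgfr2+ FB called 68 genes, 39 higher in CD81+ FB and 29 in Fgfr2+ FB. Each of the 68 kept its direction under every alternative that could test it, while the number past the threshold moved. It was 459 (224 higher in CD81+ FB and 235 in Fgfr2+ FB) with DESeq2, 195 (121 and 74) with no filter on low counts, 119 (65 and 54) with at least 10 counts in every library of 1 population, 301 (127 and 174) with the 12 colonic FB libraries in the fit, 163 (60 and 103) with all 30 libraries, and 19 (11 and 8) with length-scaled TPM counts. Of 31577 single transcripts, edgeR called 0 (0 and 0), with 1473 at an unadjusted p below 0.05, and DESeq2 was not run on transcripts. The default quasi-likelihood of edgeR was kept as the main fit with the counts of both forms known. The newer form, set by legacy=FALSE and added after seeing the data, called 136 (76 and 60). The cause was not tested for any of these. RLE gave 64, upper quartile 86, thinned counts 69, and fold thresholds of 1 and 2 gave 70 and 64.

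With each library left out in turn, the count lay between 5 and 129, that of genes higher in CD81+ FB between 4 and 48, and that of genes higher in Fgfr2+ FB between 1 and 81. The small intestinal comparison, with 394 calls, gave between 59 and 856, and the interaction, with 75, between 37 and 127. DESeq2 called 1058 genes in the small intestinal comparison and 428 in the interaction, and legacy=FALSE 1015 and 93. The cause was not tested.

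With a replicate block the counts were 58, 279 and 64 in the colonic comparison, the small intestinal one and the interaction, and 48 of the 68 colonic calls were among the 58. The other 20, which kept their direction, were *Ebf3*, *Tmeff2*, *Col28a1*, *Tbx2*, *Col6a4*, *F11r*, *Igfbp6*, *Nid1*, *Sema3d*, *Hspb8*, *Serpinf1*, *Nova1*, *Pde1b*, *Rgs2*, *Tenm3*, *St6galnac5*, *Piezo2*, *Adgrd1*, *Glis3* and *Pappa2*. Deviations from the group mean correlated across genes at 0.0707, 0.0490 and -0.0164 between the libraries with the same number, and 4 of the 6 libraries correlated best with their own number. The labels give 3 mice but do not say which libraries share one, so the part of shared mice was not tested beyond the block.

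Precision rests on 3 libraries a group and totals of 8740291 to 18710840 estimated counts. A count of 0 over the 3 Fgfr2+ libraries allows up to 3 counts. Amplified reads are not independent molecules.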

Other observations

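Some genes were high in 1 library alone. *Rspo3*, which encodes an R-spondin that strengthens Wnt signals, was at 9.51, 41.7 and 4424 CPM in CD81+ FB and 57.8, 21.8 and 26.4 CPM in Fgfr2+ FB, so CD81+ replicate 3 was far above the other 5 libraries and the gene was not called (edgeR adjusted p = 0.292). *Fgfr3*, which encodes another FGF receptor, was at 0.564, 0.369 and 685 CPM and 2.68, 3.43 and 12.7 CPM, high in the same library. *Lmod1*, which encodes the smooth muscle protein leiomodin-1, was at 146, 0.0615 and 1.70 CPM and 1.71, 8.62 and 8.67 CPM, high in CD81+ replicate 1.

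Of 19 tested immediate early genes, which respond within minutes to stress and to tissue digestion, 16 were higher in CD81+ FB, 7 of them without overlap, and none was called by edgeR (median log2 fold change 0.45). Of all 14477 genes tested, 7630 were higher in CD81+ FB, and 15.2% did not overlap in either direction. *Egr1* was at 4847, 6747 and 4970.2 CPM in CD81+ FB and 1917, 4422 and 3871 CPM in Fgfr2+ FB. Mitochondrial genes held 2.32%, 1.91% and 1.39% of the counts in CD81+ FB and 2.98%, 3.47% and 2.9% in Fgfr2+ FB.

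Of the 68 called genes, 1 shared at least 50% of its 31-base stretches with other genes and 66 shared under 10%. The 1 was *Gm10925*, with 100% shared, at 0.403, 0.0615 and 2.03 CPM in CD81+ FB and 46.9, 82.5 and 301 CPM in Fgfr2+ FB, whose values are therefore uncertain.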
